A study of Mus musculus with 6 samples.

Results

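The genes described here encode the FGF receptors *Fgfr1*, *Fgfr2*, *Fgfr3* and *Fgfr4*, the co-receptor *Klb*, the ligands *Fgf9* and *Fgf15*, and the Sprouty inhibitors *Spry1*, *Spry2* and *Spry4*. They were taken by symbol as 10 of the 23366 genes in the count tables. Their expression was measured by RNA-sequencing of epithelial cells sorted by the surface protein EpCAM from the small intestine of mouse embryos at E13.5, with 500 cells in each library. The 3 mutant libraries were made from embryos with the alleles Shh-cre-egfp:Tcf7l1 lox/lox. Their Cre is expressed where *Shh* is and removes the floxed exon of *Tcf7l1*, which encodes a transcription factor that restrains WNT targets. The 3 control libraries came from wild type embryos. No group carried Cre with intact *Tcf7l1*, so the Cre allele and the loss of *Tcf7l1* cannot be told apart.

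FGF receptors are receptor tyrosine kinases that signal through FRS2, RAS and the MAP kinases when an FGF ligand and heparan sulfate bind them. Sprouty proteins are made in response to this signal and dampen it. In the embryonic gut, FGF10 from the mesenchyme acts on the epithelial form of FGFR2, and FGF9 made by the epithelium acts on the mesenchyme. FGF15, the mouse hormone that limits bile acid synthesis in the liver, acts with FGFR4 and β-Klotho, the product of *Klb*.

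The counts are sums over all transcripts of a gene. For *Fgfr2* (ENSMUSG00000030849), whose longest annotated transcript of 17 exons spans chr7:137306026-137409759 of mm9 on the minus strand, they join the receptor forms IIIb and IIIc, which carry alternative coding exons for the last part of the ligand-binding region. IIIb is the epithelial form and is used by FGF10. The IIIb exon is shown because it sets the epithelial form apart, and the drop in *Fgfr2* described below cannot be assigned to either form. It lies at chr7:137343272-137343419 and holds 148 bases.
Fgfr2 exon IIIb: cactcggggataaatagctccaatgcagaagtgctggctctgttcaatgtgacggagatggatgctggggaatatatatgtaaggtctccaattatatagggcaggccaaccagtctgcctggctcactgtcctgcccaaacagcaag
A pair of such exons was also annotated in *Fgfr1* and in *Fgfr3*, and none of this kind was found in *Fgfr4*.

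The total counts lay between 18216537 and 20397278, and 12501 genes had enough counts to be tested. *Tcf7l1* had 476, 474 and 364 normalized counts in wild type 1, 2 and 3, against 41.4, 33.0 and 73.0 in mutant 1, 2 and 3. The mean of *Shh*, whose locus carries Cre in the mutant embryos, fell from 481 to 198. The part of the Cre allele in this fall was not tested. Wild type 3 stood apart from the other wild type libraries, with a chi-square per gene of 14.1 and 15.8 against them, where wild type 1 and 2 differed by 7.75 and the mutant libraries by 5.66 to 7.72. The sex-linked genes split the groups, with *Xist* at 0 counts in wild type and *Ddx3y* at 0 counts in mutant libraries, so that sex and genotype cannot be told apart. The litters are not stated, and p-values measure the spread between these libraries. All 8 epithelial markers were tested, and 3 were called lower, among them *Krt18* (log2 fold change -0.54) and *Cdx2* (-0.68), and 0 higher. At an adjusted p under 0.05, 5 were lower, with *Krt8* (-0.32) and *Krt19* (-0.49), and 2 higher, *Epcam* (0.25) and *Cldn7* (0.24), and the median of the list was -0.41. The part of these markers in the receptor values was not tested. Of 12 mesenchyme markers, all had counts, and they summed to 1371 to 1700 normalized counts per wild type library and 1114 to 1756 per mutant library, most of it *Vim*. The blood markers *Ptprc*, *Hba-a1* and *Hbb-bh1* and the endothelial markers *Cdh5*, *Kdr* and *Tek* had 0 counts in every library, but other genes of both lists had counts. *Cd68* had 196 counts over the wild type and 223 over the mutant libraries, the embryonic globin *Hbb-y* 73 and 15 (adjusted p = 0.0281 from edgeR, without overlap), and *Esam* 57 and 45. Over 7 blood markers the sum was 59.1 to 107 normalized counts per wild type library and 61.9 to 106 per mutant library, and over 5 endothelial markers 13.1 to 26.1 and 12.2 to 36.2. Of 5 pancreas markers only *Cpa1* had a count, and 4 were at 0.

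Normalized counts are counts scaled by edgeR's TMM method, means are given ± SD over 3 libraries, and fold changes are mutant over wild type. Of the 10 genes, 9 were tested, and *Fgf15* had too few counts. A gene was called when its adjusted p (Benjamini-Hochberg, over all tested genes) was below 0.01, its log2 fold change was 0.5 or more in size and its mean reached 50 normalized counts. The call was lower for 3 of the 9 (*Fgfr1*, *Fgfr2* and *Fgfr3*) and higher for 0, where 8.62% of all tested genes were called, 5.83% lower and 2.78% higher. Without wild type 3, *Fgfr4* was called too, so that 4 were lower, while 1 was lower without wild type 1, wild type 2, mutant 2 or mutant 3, and with a correction for transcript length, described below, 0 were lower. The groups did not overlap for *Fgfr1* to *Fgfr4*, which were lower in every mutant library, and for *Spry1*, which was higher. Over all tested genes the groups did not overlap for 43.0%, with 22.2% on the lower side and 20.8% on the higher side. At an adjusted p under 0.05 alone, 4 of the genes were lower and 1 was higher, beside 15.1% and 13.6% of all genes. The median log2 fold change of the 9 genes was -0.49, and that of all tested genes was -0.04.

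**Figure D1:**
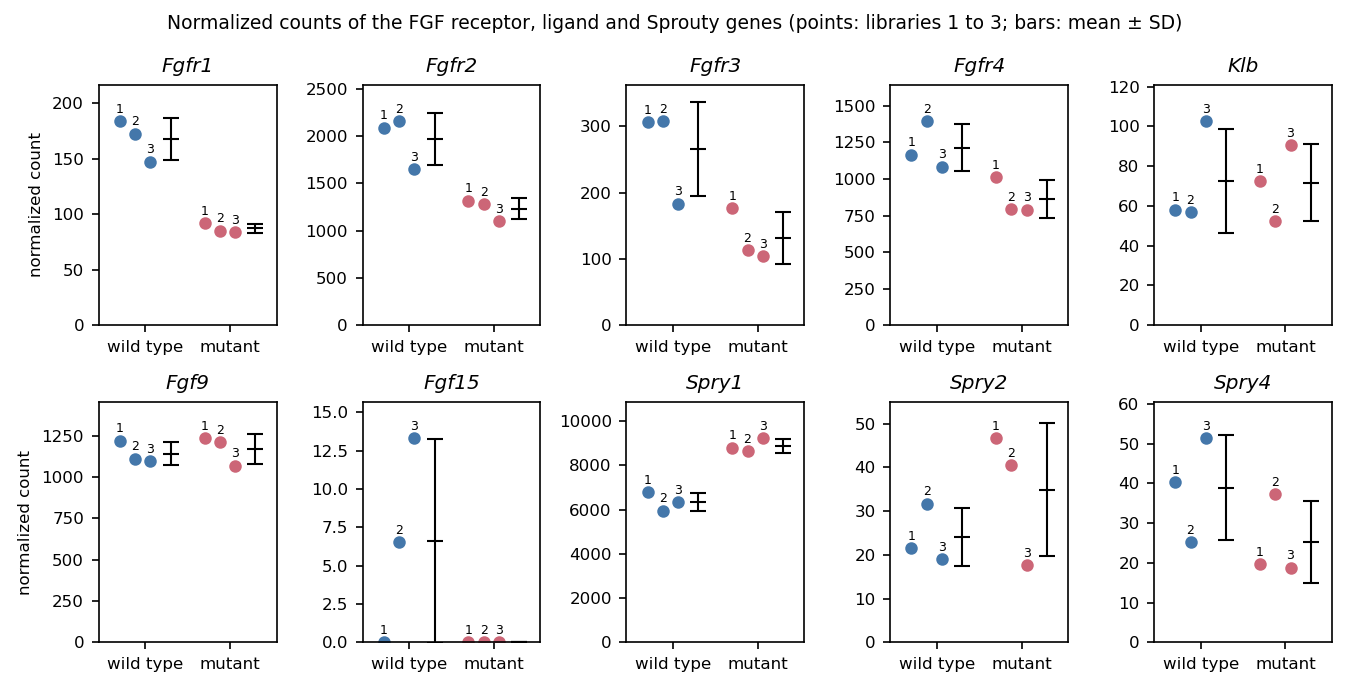
Normalized counts (y axis, linear from 0) of the 10 genes in wild type (blue) and mutant (red) libraries, with points numbered by library and bars giving mean ± SD of 3 libraries. The receptor genes *Fgfr1* to *Fgfr4* lie lower in all mutant libraries, *Spry1* lies higher, and the groups overlap for the other genes.

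*Fgfr2*, the main FGF receptor of embryonic gut epithelium, had 2087, 2156 and 1653 normalized counts in wild type 1, 2 and 3, against 1316, 1277 and 1102 in mutant 1, 2 and 3. The lowest wild type library, wild type 3, was still above the highest mutant library. The mean fell from 1966 ± 273 to 1232 ± 114 (log2 fold change -0.67 ± 0.11 SE, with edgeR's quasi-likelihood test giving an adjusted p of 0.000426), a 1.596-fold drop. *Fgfr2* was called lower without each single library in turn, at log2 fold changes of -0.77 to -0.60.

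*Fgfr3*, which serves as a receptor for FGF9 and FGF18 among others, had 307, 308 and 183 normalized counts in wild type 1, 2 and 3. In mutant 1, 2 and 3 it had 176, 113 and 104. Wild type 3 and mutant 1 nearly met, while the other libraries were well apart. The means were 266 ± 71.4 and 131 ± 39.3 (log2 fold change -1.02 ± 0.25 SE, edgeR adjusted p = 0.00726), a 2.03-fold drop. The call of *Fgfr3* was lost without wild type 1 (log2 fold change -0.90, adjusted p = 0.0418), wild type 2 (-0.90, 0.0406), mutant 2 (-0.92, 0.0347) or mutant 3 (-0.88, 0.0345).

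*Fgfr1*, the receptor that is typical of mesenchyme, was at the lowest level of the 4. It had 184, 172 and 147 normalized counts in wild type 1, 2 and 3, against 92.2, 85.2 and 84.1 in mutant 1, 2 and 3. The mutant libraries lay close together, and every wild type library was above them. The mean fell from 168 ± 18.7 to 87.1 ± 4.38 (log2 fold change -0.94 ± 0.23 SE, edgeR adjusted p = 0.00679). With each library left out, its log2 fold change was -1.02 to -0.87, and the call held only without wild type 3. In the other 5 fits the adjusted p was 0.0177 without mutant 1, 0.0249 without mutant 2, 0.024 without mutant 3, 0.0377 without wild type 1 and 0.027 without wild type 2.

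Of the 12 mesenchyme markers 6 were tested and 0 were called, and at an adjusted p under 0.05, 2 were lower (*Vim* and *Col3a1*) and 2 higher (*Acta2* and *Tagln*). *Vim*, the most abundant, had means of 1252 ± 119 and 912.8 ± 49.4 (log2 fold change -0.46, edgeR adjusted p = 0.00494). For *Pdgfra*, which had too few counts for a test, the reads numbered 23, 6 and 21 in wild type 1, 2 and 3 against 0, 0 and 1 in the mutant libraries 1, 2 and 3. Summed over 9 mesenchyme markers without *Vim*, *Acta2* and *Tagln*, a choice made after the values were seen, the wild type libraries had 54.2 to 244 normalized counts, and the mutant libraries 39.8 to 57.5, which overlap. *Acta2* and *Tagln*, genes of contractile cells, had means of 87.4 and 61.3 in wild type and 252 and 152 in mutant libraries. The part of these cells in the *Fgfr1* counts was not tested. In bulk samples fewer cells of a type and less RNA per cell cannot be told apart.

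*Fgfr4*, the receptor that FGF15 uses with β-Klotho, had 1167, 1396 and 1084 normalized counts in wild type 1, 2 and 3. In mutant 1, 2 and 3 it had 1015, 792 and 790. Mutant 1 came closest to the wild type libraries, but the groups did not overlap. The means were 1215 ± 162 and 866 ± 129 (log2 fold change -0.49 ± 0.13 SE, edgeR adjusted p = 0.00966), so that *Fgfr4* passed the adjusted p and fell just short of the minimum fold. It was called lower without wild type 3 (log2 fold change -0.55) and without mutant 1 (-0.62).

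*Klb*, whose product binds FGF15 together with FGFR4, had 58.1, 56.9 and 103 normalized counts in wild type 1, 2 and 3, against 72.5, 52.2 and 90.7 in mutant 1, 2 and 3. The groups overlapped fully, and library 3 was highest in both. The log2 fold change was -0.02 with a 95% interval from -0.76 to 0.72 (adjusted p = 0.98 from edgeR), an interval that holds changes as large as those of *Fgfr2*. The related *Kl* had 3 counts in all, in mutant 2. *Fgfrl1*, a family member without a kinase domain, had means of 967 ± 218 and 702 ± 83.1 (log2 fold change -0.46, edgeR adjusted p = 0.0339) and was not called.

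Transcript length moved with these differences. Across 11874 tested genes with a known length, the log2 fold change and the log2 length of the longest transcript had a Spearman correlation of -0.246, given as a description since genes share the libraries. The median log2 fold change was 0.14 for transcripts of up to 1983 bases, a set that includes *Fgf15*, and -0.02 for those of 1984 to 3063 bases, which include *Spry1* and *Spry2*. It was -0.16 for those of 3064 to 4461 bases, which include *Fgfr2*, *Fgfr3* and *Fgfr4* but also *Fgf9* and *Klb*, and -0.15 for longer ones, which include *Fgfr1* and *Spry4*. From the shortest to the longest set 3%, 5.96%, 9.03% and 5.8% were called lower. With a correction for this trend, *Fgfr2* had a log2 fold change of -0.41 (adjusted p = 0.00654), *Fgfr1* of -0.69 (0.0234), *Fgfr3* of -0.76 (0.0295) and *Fgfr4* of -0.28 (0.0865), and no receptor was called. The correction moved the median of all genes by 0.12, and relative to that median *Fgfr1* to *Fgfr4* stood at -0.77, -0.49, -0.84 and -0.36, against -0.90, -0.63, -0.98 and -0.45 without it. It turned the share of calls that were higher from 32.3% into 64.8%.

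**Figure D2:**
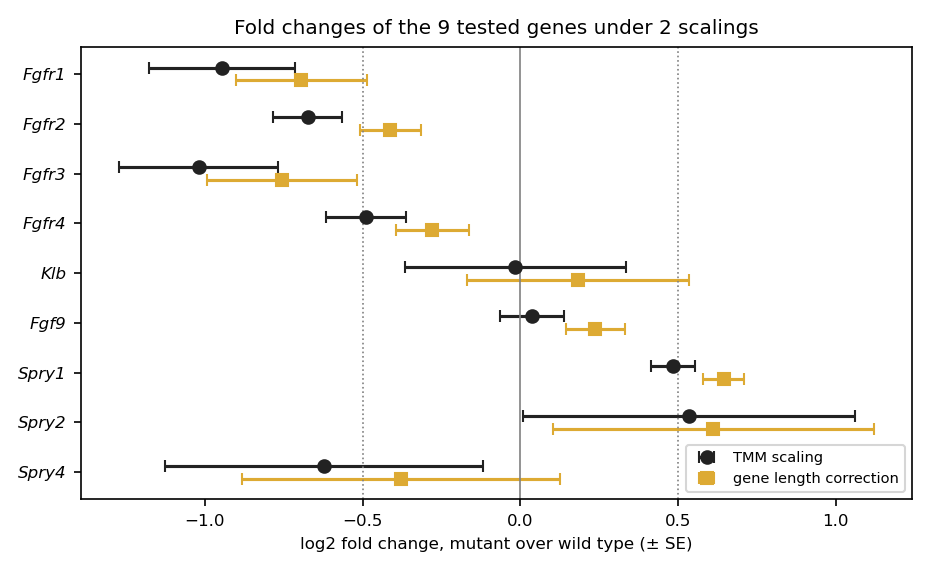
Log2 fold change (x axis, mutant over wild type, ± SE) of the 9 tested genes with TMM scaling (black circles) and with the correction for transcript length (yellow squares); dotted lines mark the minimum of 0.5 for a call. The 4 receptor genes lie below 0 and *Spry1* above 0 with both scalings, and the correction moves all 9 genes upward, *Fgfr2* from -0.67 to -0.41.

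The question of whether the receptors fell alike was put to their shares within each library, which do not depend on library scaling. The trend with transcript length described above was not corrected in these shares. Per kilobase of transcript, *Fgfr2* made up 50.6%, 48.0% and 48.3% of the reads of the 4 receptors in wild type 1, 2 and 3, against 44.9%, 50.5% and 47.1% in mutant 1, 2 and 3. The share of *Fgfr4* was 37.7%, 41.4% and 42.2% in wild type 1, 2 and 3, against 46.1%, 41.8% and 45.0% in mutant 1, 2 and 3. Both shares overlapped between the groups (exact 2-sided permutation p = 0.4 for *Fgfr2* and 0.2 for *Fgfr4*). *Fgfr3* took 6.87% ± 1.12 of the wild type reads and 5.22% ± 0.93 of the mutant reads (exact permutation p = 0.2, n = 3). *Fgfr1* held 3.73% ± 0.28 in wild type and 2.99% ± 0.20 in mutant libraries, without overlap (exact permutation p = 0.1, the smallest that 3 libraries against 3 allow). The summed receptor level reached 46.4 ± 6.30 CPM (library-scaled counts) per kilobase in wild type but 30.1 ± 3.53 in mutant libraries, 64.8% of the wild type (exact permutation p = 0.1).

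**Figure D3:**
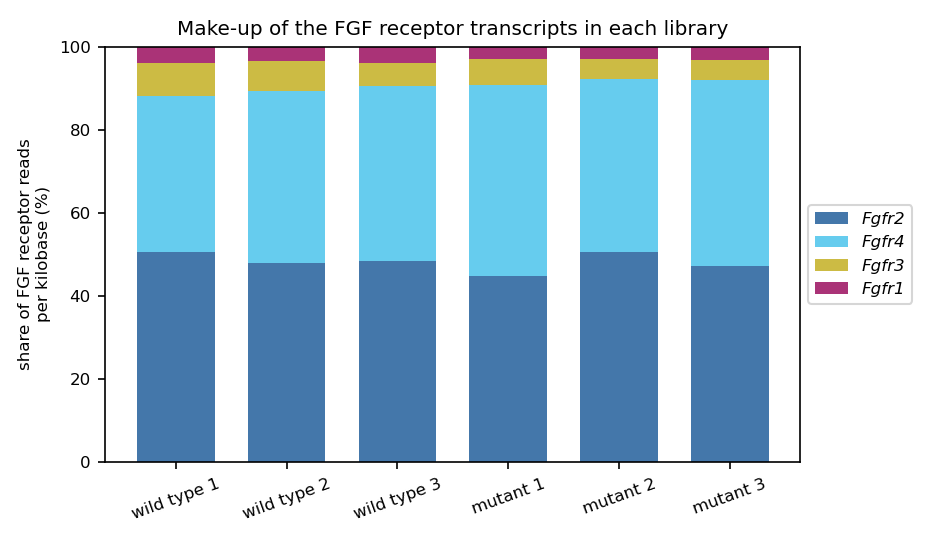
Share of each FGF receptor gene (y axis, % of the summed receptor reads per kilobase of the longest transcript) in each of the 6 libraries (x axis). *Fgfr2* and *Fgfr4* together fill most of every bar, and their shares overlap between the groups.

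*Fgf9*, the epithelial ligand, had 1220, 1112 and 1096 normalized counts in wild type 1, 2 and 3, against 1234, 1212 and 1070 in mutant 1, 2 and 3. Its groups overlapped over nearly their whole range. The log2 fold change was 0.04 with a 95% interval from -0.18 to 0.25 (adjusted p = 0.819 from edgeR), and the sign turned with library size as the only scaling (-0.07) and without mutant 1.

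The wild type libraries 1, 2 and 3 held 0, 7 and 14 reads of *Fgf15*, and no mutant library held any. The 21 wild type counts have an exact 95% Poisson interval from 13 to 32.1, and they came from wild type 2 and 3 only. The 0 mutant counts have an interval from 0 to 3.69. With 3 counts over the mutant group set as a floor, the wild type level was 6.16-fold that floor. This is a ratio of summed counts and no lower limit. It leaves out the spread between libraries, and wild type 1 had 0 reads like the mutant libraries. Without wild type 1, 2 or 3 the ratio was 9.25, 6.19 or 3.06, and without a mutant library 4.04 to 4.18. Without the filter on low counts *Fgf15* had an adjusted p of 0.052 in edgeR and 0.0899 in DESeq2. On the opposite strand, exons of another gene overlap 26.4% of its exon bases, and whether counting used strand is not given in the sources used here.

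Of 22 FGF ligand genes, *Fgf9* included, 17 had a count in some library, 4 were tested (*Fgf1*, *Fgf9*, *Fgf13* and *Fgf14*) and 0 were called. *Fgf13*, which encodes an intracellular protein of the family and not a secreted ligand, was measured at 42.3 ± 10.2 (wild type) and 40.0 ± 28.0 (mutant) normalized counts. *Fgf10*, the mesenchymal ligand, had 11 counts in wild type 3 and 0 in the other 5 libraries. *Fgf3*, *Fgf4*, *Fgf6*, *Fgf22* and *Fgf23* had 0 counts in all libraries.

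*Spry1* was by far the most abundant of the 10 genes and above 96.3% of all tested genes by mean count. It had 6774, 5956 and 6331 normalized counts in wild type 1, 2 and 3. In mutant 1, 2 and 3 it had 8798, 8627 and 9213. Every mutant library was above every wild type library, by more than the range within either group. The means of 6354 ± 410 and 8879 ± 302 differed (log2 fold change 0.48 ± 0.07 SE, edgeR adjusted p = 0.000142), a 1.40-fold difference just under the minimum fold for a call. *Spry1* was called higher with DESeq2 (0.51), with RLE scaling (0.50), with the length correction (0.64), without mutant 2 (0.50) and without wild type 1 (0.53). The length correction also raised the median of all genes. Relative to that median *Spry1* stood at 0.56 with the correction and at 0.53 without it.

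*Spry2* and *Spry4* were at low levels. *Spry2* had 21.6, 31.7 and 19.0 normalized counts in wild type 1, 2 and 3, against 46.6, 40.5 and 17.7 in mutant 1, 2 and 3. Mutant 3 was the lowest of all libraries and mutant 1 the highest, so the groups overlapped (log2 fold change 0.53, 95% interval from -0.58 to 1.65, adjusted p = 0.48 from edgeR). *Spry4* had 40.3, 25.2 and 51.3 in wild type 1, 2 and 3. In mutant 1, 2 and 3 it had 19.7, 37.3 and 18.8. Its groups overlapped as well (log2 fold change -0.62, 95% interval from -1.69 to 0.45, adjusted p = 0.383). The interval of *Spry2* reaches past the difference of *Spry1*, while that of *Spry4* ends just below it, and neither gene reached the mean of 50 normalized counts that a call needs. Per kilobase, *Spry1* made up 99.05% to 99.62% of the reads of these 3 Sprouty genes in every library.

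Levels of different genes were compared as CPM per kilobase of the longest transcript. In wild type libraries the order was *Spry1* (117 ± 7.56), *Fgfr2* (22.7 ± 3.16), *Fgfr4* (18.7 ± 2.49), *Fgf9* (18.2 ± 1.08), *Fgfr3* (3.23 ± 0.87), *Fgfr1* (1.72 ± 0.19), *Klb* (1.07 ± 0.39), *Spry2* (0.592 ± 0.165), *Spry4* (0.435 ± 0.147) and *Fgf15* (0.187 ± 0.188). The ranges of *Fgfr2*, *Fgfr4* and *Fgf9* overlapped in turn, as did those of *Fgfr1* and *Klb* and those of *Spry2*, *Spry4* and *Fgf15*. In mutant libraries *Fgf9* (18.7 ± 1.42) stood above *Fgfr2* (14.2 ± 1.32) and *Fgfr4* (13.3 ± 1.99), with no overlap with either, and *Klb* (1.06 ± 0.28) and *Fgfr1* (0.895 ± 0.045) overlapped.

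*Fgfr2* and *Spry1*, the most abundant genes of the set that differed between the groups, moved in opposite directions, and their promoters are shown for that reason. These are the 250 bases before the RefSeq start, on the strand of the gene. The window of *Fgfr2* lies at chr7:137410323-137410572 (minus strand) and has 44.0% G and C, and that of *Spry1* at chr3:37538619-37538868 (plus strand) has 62.4%.
Fgfr2 promoter: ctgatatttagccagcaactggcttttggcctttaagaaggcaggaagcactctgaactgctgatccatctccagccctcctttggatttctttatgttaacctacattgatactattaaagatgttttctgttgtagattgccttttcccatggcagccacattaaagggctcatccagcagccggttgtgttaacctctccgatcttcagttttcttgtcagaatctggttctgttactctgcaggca
Spry1 promoter: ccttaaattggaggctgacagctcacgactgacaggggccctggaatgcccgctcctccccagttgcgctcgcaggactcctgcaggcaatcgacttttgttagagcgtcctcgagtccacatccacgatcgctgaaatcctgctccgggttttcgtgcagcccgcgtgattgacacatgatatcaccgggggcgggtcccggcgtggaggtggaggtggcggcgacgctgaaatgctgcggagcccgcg
Motifs of TCF/LEF factors (CTTTGAT or CTTTGAA) and of ETS factors (CCGGAAG), searched on both strands, would be in capitals. None of these letters occurred in the 8 windows read for 7 of the genes (*Fgfr2*, *Fgfr3*, *Fgfr4*, *Klb*, *Fgf9*, *Spry1* and *Spry2*). Of 32536 promoter windows of this length, 7.50% hold a TCF/LEF motif and 6.95% the ETS motif.

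The wider pathway was described by lists of ligands, receptors, adaptors, inhibitors, targets, heparan sulfate genes, splicing regulators and bile acid genes. Beyond the 10 genes these hold 86 tested genes, of which 6 (6.98%) were called lower and 2 (2.33%) higher, near the 5.83% and 2.78% of all tested genes. At an adjusted p under 0.05, 23 of the 86 were lower and 6 higher, beside 15.1% and 13.6% of all tested genes. The groups did not overlap for 28 on the lower side and 11 on the higher side, beside 22.2% and 20.8%. The median log2 fold change of the 86 genes was -0.17.

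Among 21 tested adaptor and RAS-MAPK genes, 0 were called, and at an adjusted p under 0.05, 6 were lower and 1 was higher, beside 15.1% and 13.6% of all tested genes. *Rps6ka1*, a kinase below ERK and the most abundant of the list, had 12588 ± 1177 and 10096 ± 783 (log2 fold change -0.32, adjusted p = 0.0077 from edgeR), under the minimum fold. *Frs2*, the docking protein of FGF receptors, had 508 ± 170 and 313 ± 62.5 (log2 fold change -0.70, adjusted p = 0.023).

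Of 14 tested feedback inhibitors, the Sprouty genes included, 0 were called, with a median log2 fold change of 0.02. At an adjusted p under 0.05, *Spry1* alone differed. *Dusp6*, a phosphatase of ERK that is induced by FGF signals, had 1207, 1290 and 1323 normalized counts in wild type 1, 2 and 3, against 1257, 1303 and 1461 in mutant 1, 2 and 3. The groups overlapped, with means of 1273 ± 59.9 and 1341 ± 107 (log2 fold change 0.07 ± 0.10 SE, edgeR adjusted p = 0.607). *Errfi1*, an inhibitor of EGF receptors and the most abundant gene here after *Spry1*, had 4944 ± 320 and 5130 ± 441 (adjusted p = 0.657).

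Of 11 ETS and early target genes, *Etv4* was called lower. *Etv4*, an ETS factor and a common readout of FGF signals, went from a mean of 450 ± 77.5 down to 264 ± 26.4 (log2 fold change -0.77 ± 0.17 SE, edgeR adjusted p = 0.00356). Its call was lost without wild type 1 (adjusted p = 0.0137), wild type 3 (0.013), mutant 1 (0.0129) or mutant 3 (0.0197), and with the length correction it held (0.00985). Its relative *Etv5* had 146 ± 22.7 and 76.5 ± 8.32 (log2 fold change -0.93, adjusted p = 0.013) and was not called. *Etv1* had 67 counts over the wild type and 6 over the mutant libraries. It was not called, with an edgeR adjusted p of 0.0165, above 0.01, and a mean below the minimum of 50. The early genes went both ways, with *Fos* at 13134 ± 458 and 9666 ± 546 (log2 fold change -0.44, adjusted p = 0.000221), *Ier2* at 27717 ± 1391 and 35881 ± 624 (0.37, 0.000415) and *Egr1* at 11984 ± 207 and 14435 ± 1934 (0.27, 0.0256).

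Of 25 tested genes for heparan sulfate and FGF carriers, *Gpc3* and *Gpc1* were called lower and *Flrt3* higher, with a median of -0.26. *Gpc3*, which encodes a glypican of the cell surface, fell from 9538 ± 690 to 4649 ± 562 (log2 fold change -1.04 ± 0.09 SE, edgeR adjusted p = 5.99e-07). *Gpc1*, another glypican, had 175 ± 66.1 and 77.3 ± 4.76 (log2 fold change -1.18, adjusted p = 0.00627). The call of *Gpc1* was lost with the length correction (adjusted p = 0.02) and in each fit that left out a library other than wild type 3 (0.0184 to 0.0577). *Flrt3*, a membrane protein that binds FGF receptors, rose from 3045 ± 241 to 4975 ± 391 (log2 fold change 0.71 ± 0.08 SE, edgeR adjusted p = 1.62e-05). *Gpc3* and *Flrt3* kept their calls with each library left out and with the length correction. *Gpc3* lies on the X chromosome, and sex and genotype cannot be told apart in these libraries. *Sdc1*, the syndecan of epithelium, had 3505 ± 224 and 2693 ± 124 (log2 fold change -0.38, adjusted p = 0.00215), under the minimum fold.

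Of 6 splicing regulators, *Esrp2* was called lower. *Esrp1* and *Esrp2* are epithelial proteins that favour the IIIb exon of *Fgfr2*. *Esrp2* had a mean of 591 ± 74.0 in wild type against 339 ± 44.1 in mutant libraries (log2 fold change -0.80 ± 0.15 SE, edgeR adjusted p = 0.00133). Its call did not hold once wild type 2 was left out (adjusted p = 0.0103). *Esrp1*, at a higher count, had 2112 ± 289 and 2163 ± 52.1 (log2 fold change 0.03, adjusted p = 0.821). *Ptbp1*, a repressor of many exons, had 7439 ± 322 and 6654 ± 326 (log2 fold change -0.16, adjusted p = 0.0917), and *Mbnl2* had 2861 ± 213 and 2225 ± 106 (-0.36, 0.004), under the minimum fold.

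Of 12 genes around FGF15 and bile acids, 8 were tested. *Nr1h4*, the bile acid receptor FXR that induces *Fgf15* in the ileum, rose from 1057 ± 129 to 1593 ± 196 (log2 fold change 0.59 ± 0.11 SE, edgeR adjusted p = 0.00149). The call of *Nr1h4* was lost without wild type 1 (adjusted p = 0.0122), wild type 2 (0.0104), mutant 1 (0.011) or mutant 2 (0.011), and with library size as the only scaling, where its log2 fold change was 0.49. *Rxra*, the partner of FXR, was called lower, from 216 ± 32.8 to 119 ± 19.4 (log2 fold change -0.85, adjusted p = 0.00904). Its call was lost with the length correction (0.0405) and in each fit that left out a library other than wild type 3 (0.0119 to 0.0506). *Cdx2*, a homeobox factor of intestinal epithelium, fell from 796 ± 148 to 495 ± 66.3 (log2 fold change -0.68, adjusted p = 0.00348). The call of *Cdx2* was lost with the length correction (0.0115) and without wild type 1 (0.0114), wild type 2 (0.0287), mutant 1 (0.0127) or mutant 2 (0.0216). *Slc51a*, a bile acid exporter subunit, had 2740 ± 156 and 3105 ± 87.9 (adjusted p = 0.0853), and *Gata4*, a factor of anterior gut, had 1941 ± 260 and 1757 ± 57.8 (log2 fold change -0.14, adjusted p = 0.298). The other subunit *Slc51b* and the ileal genes *Slc10a2* and *Fabp6* had at most 8 counts in a library.

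**Figure D4:**
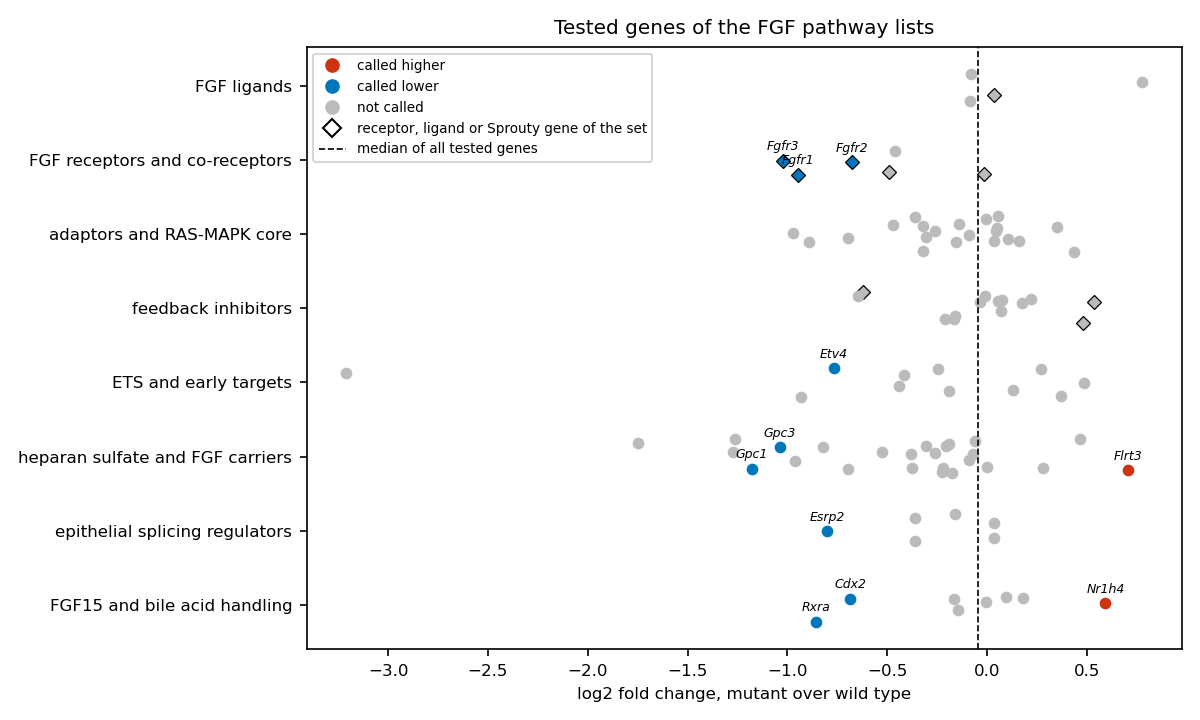
Log2 fold change (x axis, mutant over wild type) of every tested gene of the 8 pathway lists (rows), with genes called lower in blue, called higher in red and named, and others in grey; diamonds with a black edge are genes of the set, and the dashed line is the median of all tested genes at -0.04. The receptor list lies to the left of the median except for *Klb*, and the inhibitors lie on both sides of it.

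Of 7 gastric markers 5 were tested and 2 were called lower, *Nkx6-3* (log2 fold change -4.78) and *Cldn18* (-2.81), while *Gkn1* had 43.4 in both groups. At an adjusted p under 0.05, 4 were lower and 0 higher, with *Barx1* (-4.56, edgeR adjusted p = 0.00294) and *Gkn2* (-1.84, 0.0171). *Sox2*, with too few counts for a test, had 30 counts over the wild type and 0 over the mutant libraries. Of 5 anterior markers 2 of 4 tested were called lower, among them *Onecut2* (-0.72), and *Gata4* and *Osr1* were not. Of 7 posterior markers 2 were tested and 0 were called, and *Osr2* (-0.48, adjusted p = 0.000504 from edgeR) made up most of their counts. The summed level of the gastric markers was 686 to 927 normalized counts per wild type library, against 92.6 to 132 per mutant library. For the anterior markers it was 3615 to 4446 and 2931 to 3118, and for the posterior markers 2828 to 3198 and 1980 to 2199. Their part in the lower receptor counts was not tested.

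The genes whose profile over the 6 libraries lay closest to that of a called receptor, by Euclidean distance of centred log2 CPM among 10564 genes, were *Tacc2*, *Gata5* and *Ehmt1* for *Fgfr2*, at distances of 0.119, 0.14 and 0.14. For *Fgfr1* they were *Rdx*, *Serpinf2* and *Agbl5* (0.111, 0.121 and 0.131), and for *Fgfr3* they were *Sfxn3*, *Cercam* and *Jrk* (0.25, 0.332 and 0.336). All 9 had log2 fold changes between -1.13 and -0.59, which follows from choosing genes by their profile over the same libraries.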

How the data were processed

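The 3 mutant and 3 wild type libraries held RNA of EpCAM-sorted cells of the E13.5 small intestine. The authors amplified cDNA of 500 sorted cells per library with the SMARTer v4 kit for 15 cycles, mapped reads with STAR 2.5.2b to mm9, assigned uniquely mapping reads to genes with featureCounts 1.5.1 on a UCSC gene model, and deposited raw counts. Whether counting used strand is not given in the sources used here, nor are litters or pooling.

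Total counts of 18216537 to 20397278 set the counting error. The Poisson intervals of *Fgf15* cover that error only, and the ratio to its floor covers no error. Intervals of log2 fold changes come from the edgeR fit and its spread between libraries. Genes passing filterByExpr (12501 of 23366) were tested here with edgeR 4.0.16 in R 4.3.3, by TMM scaling and its quasi-likelihood test for the genotype term, with p-values adjusted by Benjamini-Hochberg over all of them. A call needed 3 things: a log2 fold change of 0.5 or more in either direction, 50 normalized counts on average, and an adjusted p below 0.01. The 50 counts are a limit standing in for the RPKM limit in the methods of the study.

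Alternatives were DESeq2 1.42.0, RLE, library size alone, other filters and thresholds, a correction for transcript length (loess span 0.5), the replicate number as a block, and the omission of each library. The genes, lists and tests were chosen with earlier results of these data known. Named genes are the 10 genes of the set, *Tcf7l1*, *Shh*, *Xist* and *Ddx3y*, called genes and the most abundant genes of the pathway lists, marker genes, and the nearest profiles. Others named were chosen after their values were seen. Positions and transcript lengths come from GENCODE M1 on mm9, and promoter sequences from RefSeq (GRCm38.p6), placed on mm9 by exact match. *Hras* and *Diet1*, written in the lists, were not analysed here, and some items that the rule for named genes would include are not reported here.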

Additional observations from a re-analysis of the deposited data

How the results depend on the processing

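Of 138 values of the tested genes and *Tcf7l1* over the alternatives, 103 kept their direction and their side of the call. *Fgfr1* lost its call with the replicate block (-0.94). With the length correction, and with the correction and the replicate block, *Fgfr1* had -0.69 and -0.69, *Fgfr2* -0.41 and -0.41, and *Fgfr3* -0.76 and -0.76, all without a call, while *Spry1* was called (0.64 and 0.65), as it was with DESeq2 (0.51) and RLE (0.50). *Fgfr4* was called with library size alone (-0.60) and at a mean of 50 counts (-0.50). The sign of *Klb* turned with DESeq2 (0.0039), RLE (0.0029), the replicate block (0.0034), the length correction (0.18) and both (0.22), and that of *Fgf9* with library size alone (-0.0697). With a library left out, log2 fold changes were -1.02 to -0.87 for *Fgfr1*, -1.29 to -0.88 for *Fgfr3*, -0.62 to -0.38 for *Fgfr4*, -0.001 to 0.10 for *Fgf9*, 0.44 to 0.53 for *Spry1* and -0.22 to 0.33 for *Klb*. The cause of these changes was not tested.

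Of the 10 genes, 1 was called higher with DESeq2, RLE, the length correction alone or with the replicate block, or an adjusted p under 0.05, and 0 to 1 with a library left out. Called lower were 0 with the length correction, alone or with the replicate block, 1 at a log2 fold change of at least 1, and 1 to 4 with a library left out (1 without wild type 1, wild type 2, mutant 2 or mutant 3). Of the other pathway genes, 1 was called higher with library size alone, 6 at an adjusted p under 0.05, 0 at a log2 fold change of at least 1 and 1 to 3 with a library left out. Called lower were 3 with the length correction, 1 with that and the replicate block, 23 at an adjusted p under 0.05, 2 at a log2 fold change of at least 1 and 2 to 8 with a library left out.

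Over all genes, 348 were called higher and 729 lower. With the length correction these were 721 and 392, with that and the replicate block 674 and 327, at an adjusted p under 0.05 alone 1702 and 1892, and at a log2 fold change of at least 1, 85 and 284. With library size alone 200 were higher, 17.3% of the calls, with a shift of -0.11 in the overall median. Those lower were 405 without wild type 1, 406 without wild type 2, 463 without mutant 2 and at most 867. Libraries with the same number deviated with correlations of -0.04 to 0.01, and those with different numbers with -0.02 to 0.04. These values show no pairing by number, but with 3 libraries per group they cannot exclude one. The replicate block left 339 higher and 691 lower. Depth limits *Fgf15*, *Spry2*, *Spry4* and *Klb*. The differences in receptor share between the groups moved by less than 1 SD with counts not divided by length, or with all exons as the length, which was added after seeing the data.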
